A study of Mus musculus with 14 samples.

Results

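The question here was how the co-culture response of mouse embryonic fibroblasts (MEFs) depends on Hsf1. The comparison covered 4 groups of 2 arrays, 8 of the 14 arrays of the series: Hsf1 -/- (null) fibroblasts sorted from a co-culture with tumor cells, null fibroblasts grown alone, Hsf1 +/+ (WT) fibroblasts sorted from the same kind of co-culture, and WT fibroblasts grown alone. The tumor cells were D2A1, a mouse breast cancer line, and the cultures ran for 72 hours in DMEM with 10% FCS. The fibroblasts of one genotype are a stock whose number of embryos, passage and sex are not given in the labels, so genotype and stock cannot be told apart. For each gene, the response of a genotype is its log2 value in co-culture minus its log2 value alone. The quantity of interest is the WT response minus the null response, so that a positive difference means a larger rise, or a smaller fall, in WT fibroblasts. All gene names of the authors' value table were considered, and 25896 of 36413, those above background in at least 1 group, were tested.

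HSF1 is the transcription factor of the heat shock response. It binds inverted repeats of the letters GAA and drives the genes of cytosolic chaperones, and in the stroma of tumors it is also known to drive a program in fibroblasts that includes TGF-beta and the chemokine Cxcl12. Fibroblasts near tumor cells are known to change their matrix, proteases, contractile fibres and secreted signals.

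All 8 fibroblast arrays had sound scans, with 60.0% to 63.4% of spots brighter than background, and having 2 arrays in a group is what limits precision. The 7 A replicates lay on 1 slide and the 7 B replicates on another. Of 14 fibroblast markers, 13 or 14 were above background on each fibroblast array, and the log2 of their summed level was 19.47 and 19.64 in null fibroblasts from co-culture and 19.28 and 19.32 alone, against 20.28 and 20.30 in WT fibroblasts from co-culture and 20.21 and 20.13 alone. Hsf1 itself read log2 10.52 and 10.67 in null fibroblasts from co-culture and 10.07 and 9.97 in null fibroblasts alone, against 12.05 and 12.04 in WT fibroblasts from co-culture and 12.01 and 11.69 in WT fibroblasts alone. The null arrays were thus lower in both cultures but not at background, and whether the probe lies in the deleted part is not recorded in the labels. Hsf1 responses differed by -0.38 ± 0.17 (SE, n = 2 arrays per group, adjusted p = 0.401, limma with Benjamini-Hochberg adjustment over all genes tested, as for every adjusted p below).

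Transcripts of genes high in the tumor line were present in the sorted fibroblasts, and more so in those from the WT co-culture. Over 55 genes that were at least 32-fold higher in tumor cells alone than in either kind of fibroblast alone, the median log2 value was 9.81 and 9.55 in null fibroblasts from co-culture and 6.001 and 6.06 in null fibroblasts alone. The same median was 12.01 and 12.11 in WT fibroblasts from co-culture and 6.07 and 6.15 in WT fibroblasts alone. Of these 55 genes, 47 rose in null fibroblasts and 54 in WT fibroblasts, the difference of responses passed with a larger rise in WT for 41, and it passed the other way for 0. Such a rise in 2 sorted populations cannot tell apart more tumor cells, more tumor RNA per cell and expression of these genes by fibroblasts. Which of these applied was not tested.

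**Figure D1:**
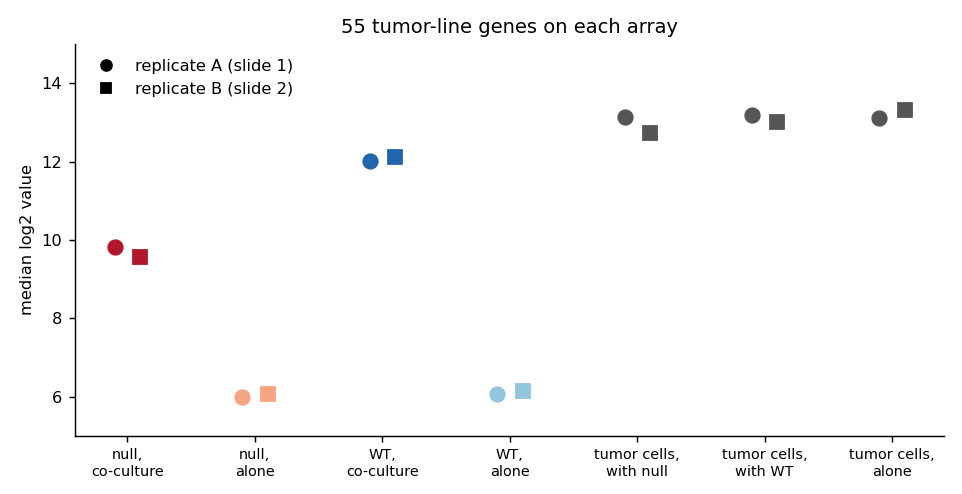
Median log2 value of 55 tumor-line genes (y axis) on each of the 14 arrays (x axis, by group; circles are replicate A, squares replicate B). Null fibroblasts from co-culture sit at 9.81 and 9.55 and WT fibroblasts from co-culture at 12.01 and 12.11, while fibroblasts alone sit between 6.001 and 6.15.

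Put as a share, the gain of genes at least 32-fold higher in tumor cells than in the same fibroblasts alone had a median of 6.87% and 7.72% of the tumor level in null fibroblasts (90 genes, quartiles 4.49% to 12.4% and 3.84% to 14.04%). In WT fibroblasts it was 34.0% and 34.0% (77 genes, quartiles 25.4% to 50.1% and 20.3% to 52.1%). By arithmetic alone, a transcript that tumor cells lack would fall by 0.10 and 0.12 (log2) at the null shares and by 0.60 and 0.60 at the WT shares, a WT minus null difference of -0.50 and -0.48. The log2 of the summed level of 16 epithelial markers was 14.82 and 15.37 in null fibroblasts from co-culture and 12.25 and 12.47 alone, against 16.21 and 16.41 in WT fibroblasts from co-culture and 11.36 and 11.41 alone. Tumor cells alone had 16.52 and 16.57. Keratin Krt18 made up most of this sum in co-culture (means of 14.87 in null and 16.26 in WT fibroblasts), against 7.65 in null and 8.01 in WT fibroblasts alone. The median over the 16 markers moved little, with 6.10 and 6.22 in null fibroblasts from co-culture and 6.01 and 6.02 alone, against 6.32 and 6.46 in WT fibroblasts from co-culture and 6.01 and 5.99 alone. The difference of responses passed for 1 of the 16, beside 3.03% of all genes tested. These values stand beside every result below, and the part of the tumor transcripts in a gene's response was not tested unless a value is given.

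One array stood apart in another way. Over 44 genes that were at least 32-fold higher in WT fibroblasts alone than in both null fibroblasts alone and tumor cells alone, null fibroblasts from co-culture gained 4.81% of the WT level on array A (quartiles 4.41% to 5.74%) and -0.07% on array B (-0.27% to 0.02%). Tumor cells sorted from the null co-culture gained 0.02% and 0.07% of it. Over 22 genes marking null fibroblasts in the same way, array A of the null co-culture kept 73.0% of the level of null fibroblasts alone and array B kept 98.7%. So array A of the null co-culture gained in genes high in the WT stock at a nearly even share, and array B did not. The source of these transcripts was not tested. Sorted tumor cells also gained in genes high in the fibroblasts they grew with: 7.86% and 15.3% of the null level in those from the null co-culture, and 3.78% and 3.86% of the WT level in those from the WT co-culture. Values without array A of the null co-culture are given below for the genes that the results turn on. Without it, 643 genes passed in place of 784, of which 435 had the larger rise in WT and 208 the smaller. Of the genes that passed with all arrays, 372 of the 508 higher and 167 of the 276 lower in WT still passed.

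The responses differed by genotype for 784 genes, which is 3.03% of those tested. The difference was positive for 508 genes (1.96%) and negative for 276 (1.07%), and each of the 784 had the same sign on both slides. It reached at least 2-fold for 360 of the positive and 183 of the negative genes. Null fibroblasts themselves changed 814 genes in co-culture (3.14%), 728 up (2.81%) and 86 down (0.332%). WT fibroblasts changed 2722 (10.5%), 1634 up (6.31%) and 1088 down (4.2%). The median over all genes tested was -0.04 for the null response, -0.04 for the WT response and -0.00 for the difference. The number of positive and negative calls turned round when the tumor share was subtracted from each co-cultured array on the linear scale: 1397 genes then passed, 326 positive and 1071 negative, and 360 of them were among the 784 with the same sign. With the tumor cells of the same co-culture as the level subtracted, 614 passed, 127 positive and 487 negative. In both subtractions, a result under the lowest value above background on its array was replaced by that lowest value. The size of a difference after subtraction can therefore depend on this floor.

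Most positive differences were genes that rose in WT fibroblasts. Of the 508, WT fibroblasts rose and the null response did not pass for 322, both genotypes rose for 162, null fibroblasts fell while WT rose for 3, null fibroblasts fell and the WT response did not pass for 5, and neither response passed alone for 16. The 276 negative differences were of several kinds. WT fibroblasts fell and the null response did not pass for 152, null fibroblasts rose and the WT response did not pass for 76, both rose for 26, null fibroblasts rose while WT fell for 7, both fell for 5, and neither passed for 10.

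**Figure D2:**
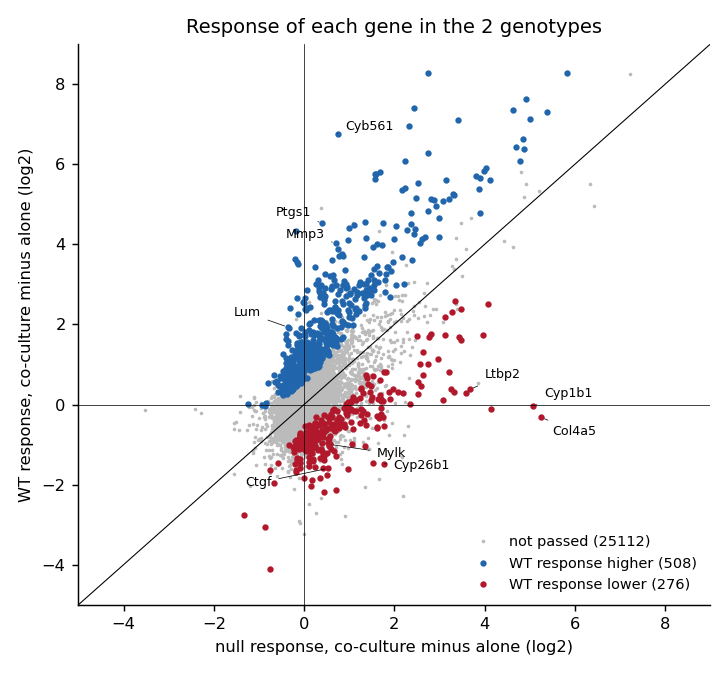
Co-culture response of each gene tested in null fibroblasts (x axis, log2) and WT fibroblasts (y axis, log2); points above the diagonal have the larger rise in WT. Blue points are the 508 genes with a positive difference, red points the 276 with a negative one, and grey points did not pass.

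Both directions were tied to the level of a gene in tumor cells. Of the 508 positive genes, 421 were at least 2-fold higher in tumor cells alone than in WT fibroblasts alone, against 10.8% of all genes tested. For these 421, which were chosen by their larger WT response, the median gain was 7.81% and 10.6% of the tumor level in null fibroblasts. It was 40.5% and 44.7% in WT fibroblasts. Over all 2801 genes tested that were higher in tumor cells in this way, the median gain was smaller. It was 4.11% and 4.77% in null fibroblasts and 18.7% and 17.6% in WT fibroblasts. Of the 276 negative genes, 166 were at least 2-fold lower in tumor cells alone than in WT fibroblasts alone, against 11.8% of all genes. The median difference over genes moved with this contrast, being -0.68 where tumor cells were more than 5 log2 units below WT fibroblasts (330 genes), 0.00 within 1 unit of them (20037 genes) and 2.19 at 5 units or more above (77 genes). The same arrays of WT fibroblasts alone enter this contrast and the difference of responses, so their deviations move both in the same direction. How much of these counts and medians comes from that was not tested. With genes at least 2-fold higher in tumor cells than in either kind of fibroblast left out, 75 genes passed, 26 positive and 49 negative.

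**Figure D3:**
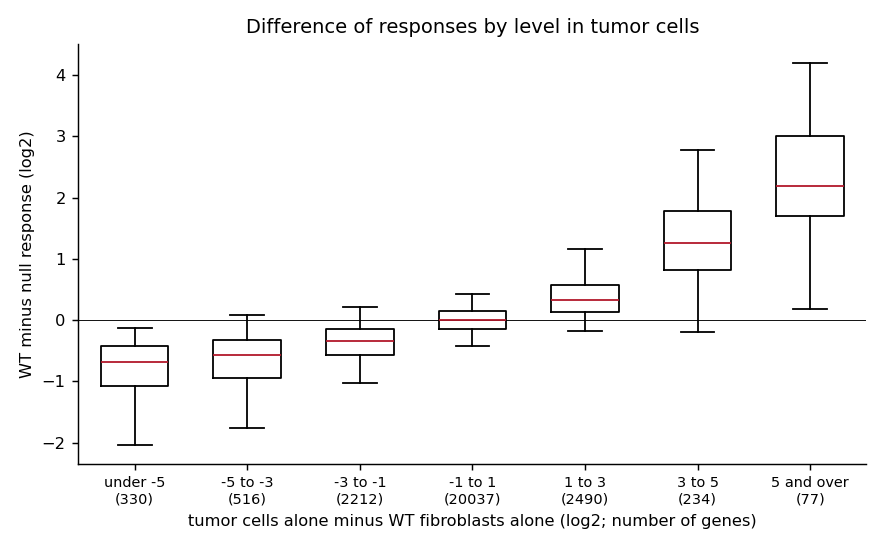
WT minus null response (y axis, log2) of all genes tested, in 7 bins of the log2 level in tumor cells alone minus WT fibroblasts alone (x axis, number of genes in parentheses). Boxes span the quartiles with the median in red, and whiskers the 5th to 95th percentile; the medians go from -0.68 in the lowest bin to 2.19 in the highest.

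For 31 of the 784 genes, 19 positive and 12 negative, both arrays of the responding fibroblasts lay outside the range of 3 other groups: the same fibroblasts alone, tumor cells alone and the tumor cells sorted from the same co-culture. The same held for 282 of all genes tested. This way of choosing them was added after the values were seen. Lum, which codes for lumican, a leucine-rich proteoglycan of collagen fibrils, read 7.42 and 7.67 in null fibroblasts from co-culture and 7.89 and 7.92 alone, against 9.03 and 8.87 in WT fibroblasts from co-culture and 7.03 and 7.01 alone. Tumor cells alone read 5.14 and 5.01, and those sorted from the WT co-culture 6.003 and 6.09. WT fibroblasts from co-culture were thus above every other array, and the difference was 2.29 ± 0.20 (4.89-fold, adjusted p = 0.000148; 2.16 without array A of the null co-culture).

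Itga10, the alpha subunit of a collagen-binding integrin, read 12.70 and 13.31 in null fibroblasts from co-culture and 13.43 and 13.37 alone, against 10.51 and 10.72 in WT fibroblasts from co-culture and 8.88 and 8.83 alone. Its level was higher in null than in WT fibroblasts in both cultures, and the gap narrowed in co-culture through the rise in WT (difference 2.15 ± 0.27, adjusted p = 0.00136; 2.12, adjusted p = 0.0539, with scanner intensities scaled at the 75th percentile). Tgfbi, a secreted matrix protein induced by TGF-beta, behaved in the same way, with 15.36 and 15.77 in null fibroblasts from co-culture and 15.44 and 15.45 alone, against 12.43 and 12.51 in WT fibroblasts from co-culture and 10.32 and 10.55 alone. Its difference of 1.91 ± 0.44 only just passed (adjusted p = 0.0477) and did not pass when any 1 of the 8 arrays was left out (adjusted p up to 0.166).

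Inmt, an enzyme that methylates indole amines, rose in both genotypes. It read 12.25 and 12.49 in null fibroblasts from co-culture and 10.85 and 10.90 alone, against 11.77 and 11.81 in WT fibroblasts from co-culture and 8.42 and 8.68 alone, while tumor cells alone were at 7.43 and 7.36. The WT rise of 3.24 exceeded the null rise of 1.49 by 1.75 ± 0.30 (adjusted p = 0.00927). Gstm7, a glutathione transferase, moved in opposite directions, with 8.26 and 8.47 in null fibroblasts from co-culture and 9.05 and 9.02 alone, against 6.90 and 6.91 in WT fibroblasts from co-culture and 6.11 and 6.22 alone. Co-culture thus brought the genotypes closer, with a null fall by 0.67 (adjusted p = 0.015) and a WT rise of 0.74 (adjusted p = 0.00405). Without array A of the null co-culture the null response was -0.57 (adjusted p = 0.0924), and the difference of 1.41 ± 0.18 (adjusted p = 0.00175) became 1.31 (adjusted p = 0.00844). Insl6, of the insulin and relaxin family, also fell in null fibroblasts (-0.60) and rose in WT fibroblasts (0.60; difference 1.20 ± 0.18, adjusted p = 0.00456).

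Matrix proteases had 3 of 25 tested genes positive and 3 negative, beside 1.96% and 1.07% of all genes, with a median difference of -0.36. The 3 positive ones were Mmp3, Mmp10 and Mmp13, which code for stromelysins and a collagenase. Mmp3 read 10.68 and 10.65 in null fibroblasts from co-culture and 9.85 and 10.07 alone, against 12.22 and 12.33 in WT fibroblasts from co-culture and 8.15 and 8.36 alone. Tumor cells alone read 10.34 and 10.31 and those from the WT co-culture 13.52 and 13.43, so WT fibroblasts in co-culture were well above tumor cells grown alone and below tumor cells sorted from the same dishes. The difference was 3.32 ± 0.16 (adjusted p = 2.58e-06). With the co-cultured tumor cells' level subtracted, it was 0.90 and did not pass (adjusted p = 0.212).

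Mmp10 was not above background in WT fibroblasts alone and read 9.37 and 9.21 in null fibroblasts from co-culture and 6.54 and 6.55 alone, against 11.71 and 11.73 in WT fibroblasts from co-culture. Tumor cells alone read 13.21 and 13.32, and the gain was 5.83% and 5.10% of that level in null fibroblasts and 33.7% and 34.3% in WT fibroblasts, close to the tumor share of each culture. Its difference was at least 11.5-fold (adjusted p = 0.000152), and that of Mmp13 at least 6.03-fold (adjusted p = 0.000687). With the tumor share subtracted Mmp10 had 2.01 (adjusted p = 0.144), and Mmp13 turned to -1.36. With the level of co-cultured tumor cells subtracted instead, Mmp10 passed and Mmp13 did not.

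Among the 10 highest positive differences of genes above background on all 8 arrays was that of Cyb561, a cytochrome of secretory vesicles. It read 12.52 and 13.00 in null fibroblasts from co-culture and 11.98 and 12.05 alone, against 13.19 and 13.32 in WT fibroblasts from co-culture and 6.26 and 6.72 alone. Tumor cells alone read 12.07 and 12.35, and those sorted from the WT co-culture 13.84 and 13.72, above the WT fibroblasts of the same dishes. The WT gain was 198% and 216% of the level in tumor cells alone, and the difference was 6.02 ± 0.27 (65.0-fold, adjusted p = 1.7e-06). Ptgs1, the constitutive cyclooxygenase of prostaglandin synthesis, read 14.31 and 14.34 in null fibroblasts from co-culture and 13.77 and 14.07 alone, against 14.33 and 14.39 in WT fibroblasts from co-culture and 9.68 and 9.99 alone. WT fibroblasts from co-culture were level with null fibroblasts and with tumor cells alone (14.58 and 14.60), and their gain was 83.1% and 86.3% of the tumor level (difference 4.12 ± 0.19, adjusted p = 1.82e-06).

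Perp, a membrane protein of cell junctions and a p53 target, had a difference of 3.85 ± 0.25 (adjusted p = 1.98e-05). Its null response of -0.21 did not pass, and its WT rise was 3.64. The WT gain of Perp was 58.7% and 63.8% of the tumor level. Tnnt2, cardiac troponin T, is a gene of the tumor line here: it read 9.56 and 9.55 in null fibroblasts from co-culture and 6.02 and 6.27 alone, against 13.24 and 13.32 in WT fibroblasts from co-culture and 5.88 and 6.45 alone. The gain was 6.86% and 6.82% of the tumor level in null fibroblasts and 96.7% and 102% in WT fibroblasts. Krt8, an epithelial keratin, had a difference of at least 5.03-fold (adjusted p = 7.44e-05), with a gain of 4.22% and 13.4% of the tumor level in null and of 50.6% and 53.1% in WT fibroblasts.

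H2-T23, a non-classical MHC class I gene, rose in both genotypes (1.16 in null, 2.26 in WT; difference 1.11 ± 0.15, adjusted p = 0.00214). The WT gain of H2-T23 was 93.9% and 103% of the level in tumor cells alone. Its difference did not pass with the level of co-cultured tumor cells subtracted. Lcn2, an iron-siderophore binding protein of inflammation, rose by 1.84 in null and by 3.44 in WT fibroblasts (difference 1.60 ± 0.34, adjusted p = 0.0334; 1.30, adjusted p = 0.0993, without array A of the null co-culture). Its WT gain was 269% and 304% of the level in tumor cells alone, and tumor cells from the WT co-culture read 11.31 and 10.95, beside 10.83 and 10.99 in the WT fibroblasts. Angptl2, an angiopoietin-like secreted protein, rose by 0.71 in null and by 1.56 in WT fibroblasts (difference 0.85 ± 0.15, adjusted p = 0.0134), and its WT gain was 135% and 153% of the level in tumor cells alone. Tumor cells from the WT co-culture read 11.43 and 11.47, above the 10.77 and 10.89 of the WT fibroblasts. With scanner intensities scaled at the 75th percentile, H2-T23 (adjusted p = 0.0833), Lcn2 (adjusted p = 0.611) and Angptl2 (adjusted p = 0.251) did not pass.

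Of the 109 negative genes that rose in null fibroblasts, 96 were at least 2-fold lower in null than in WT fibroblasts grown alone. Against 10.6% of all genes tested, 87 were at least 2-fold higher in tumor cells alone than in null fibroblasts alone. Over the 2750 genes tested that were 2-fold higher in tumor cells in this way, the median gain was 4.96% and 5.12% of the tumor level. Of these 2750, 571 were at least 2-fold lower in null than in WT fibroblasts alone. Null fibroblasts alone enter the choice of the 109 and both of these contrasts, so the choice itself favours low values there. The 87 were chosen by their rise in null fibroblasts, and their median gain was 24.1% and 19.6%. Hsd11b1, which regenerates active glucocorticoid, was not among them. It read 8.52 and 8.78 in null fibroblasts from co-culture and 6.08 and 6.16 alone, against 8.35 and 8.51 in WT fibroblasts from co-culture and 8.07 and 8.28 alone, while tumor cells alone were at 6.28 and 6.34. Null fibroblasts in co-culture thus reached the WT level, which neither tumor cells nor null fibroblasts alone had (difference -2.27 ± 0.22, adjusted p = 0.000267; -2.40 without array A of the null co-culture; -1.59, adjusted p = 0.0589, with normexp-corrected scanner intensities).

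Pdgfrb, the PDGF receptor beta of mesenchymal cells, also rose in null fibroblasts. It read 11.57 and 11.18 in null fibroblasts from co-culture and 10.05 and 10.17 alone, against 13.61 and 13.54 in WT fibroblasts from co-culture and 13.61 and 13.79 alone. Its null response was 1.26 (adjusted p = 0.00106) and its WT response -0.12 (adjusted p = 0.759), and the tested difference was -1.39 ± 0.23 (adjusted p = 0.00884; -1.19, adjusted p = 0.0282, without array A). Vcam1, an adhesion molecule for leukocytes, rose by 1.31 in null fibroblasts and had a WT response of 0.30 that did not pass (difference -1.02 ± 0.17, adjusted p = 0.00953). With the tumor share subtracted, Pdgfrb had -0.89 (adjusted p = 0.0631) and Vcam1 -0.61 (adjusted p = 0.0881), and neither passed.

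Col4a5, a basement membrane collagen chain, had the most negative difference. It read 11.13 and 10.71 in null fibroblasts from co-culture and 5.76 and 5.58 alone, against 12.91 and 12.89 in WT fibroblasts from co-culture and 13.17 and 13.26 alone. Null fibroblasts rose by 5.25 and the WT response of -0.32 did not pass (difference -5.57 ± 0.21, 47.5-fold, adjusted p = 7.22e-07; -5.36 without array A). Tumor cells alone read 11.57 and 11.75, and the null gain was 68.7% and 51.2% of that level.

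Cyp1b1, a cytochrome P450 induced through the aryl hydrocarbon receptor, read 10.88 and 10.65 in null fibroblasts from co-culture and 5.61 and 5.79 alone, against 12.01 and 11.86 in WT fibroblasts from co-culture and 12.18 and 11.74 alone. Its null gain was 147% and 124% of the level in tumor cells alone (10.16 and 10.52), and tumor cells from the null co-culture stood higher still, at 12.49 and 12.92 (difference -5.10 ± 0.29, adjusted p = 9.47e-06). Ltbp2, a microfibril protein related to the latent TGF-beta binding proteins, rose by 3.68 in null fibroblasts, with 14.10 and 14.32 in co-culture and 10.41 and 10.65 alone, against 16.47 and 16.59 in WT fibroblasts from co-culture and 16.10 and 16.20 alone. Its null gain was 45.1% and 53.3% of the tumor level (difference -3.30 ± 0.29, adjusted p = 0.000156).

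Other named genes with a negative difference also rose in null fibroblasts. Ccnd1, cyclin D1 of the G1 phase, read 13.41 and 13.25 in null fibroblasts from co-culture and 10.15 and 10.06 alone, against 15.49 and 15.49 in WT fibroblasts from co-culture and 14.74 and 14.60 alone (difference -2.40 ± 0.15, adjusted p = 1.39e-05). It rose in WT fibroblasts too, by 0.82 (adjusted p = 0.000428). The transcription factor genes Tbx3 (-3.31 ± 0.20), Id4 (-3.02 ± 0.27) and Nr2f1 (-2.87 ± 0.19) rose in null fibroblasts while their WT responses did not pass. Their null gains lay between 16.7% and 54.2% of the tumor level, and for Ccnd1 the gains were 19.8% and 17.6%. Pitx1, a hindlimb homeobox gene, was not above background in null fibroblasts alone and read 10.01 and 9.18 in null fibroblasts from co-culture, against 13.22 and 13.26 in WT fibroblasts from co-culture and 13.43 and 13.26 alone. Its difference was at least 18.99-fold (adjusted p = 4.77e-05), array A of the null co-culture was the higher of the pair, and the gain on array B was 4.94% of the tumor level. With the tumor share subtracted its difference was -1.24 (adjusted p = 0.685).

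**Figure D4:**
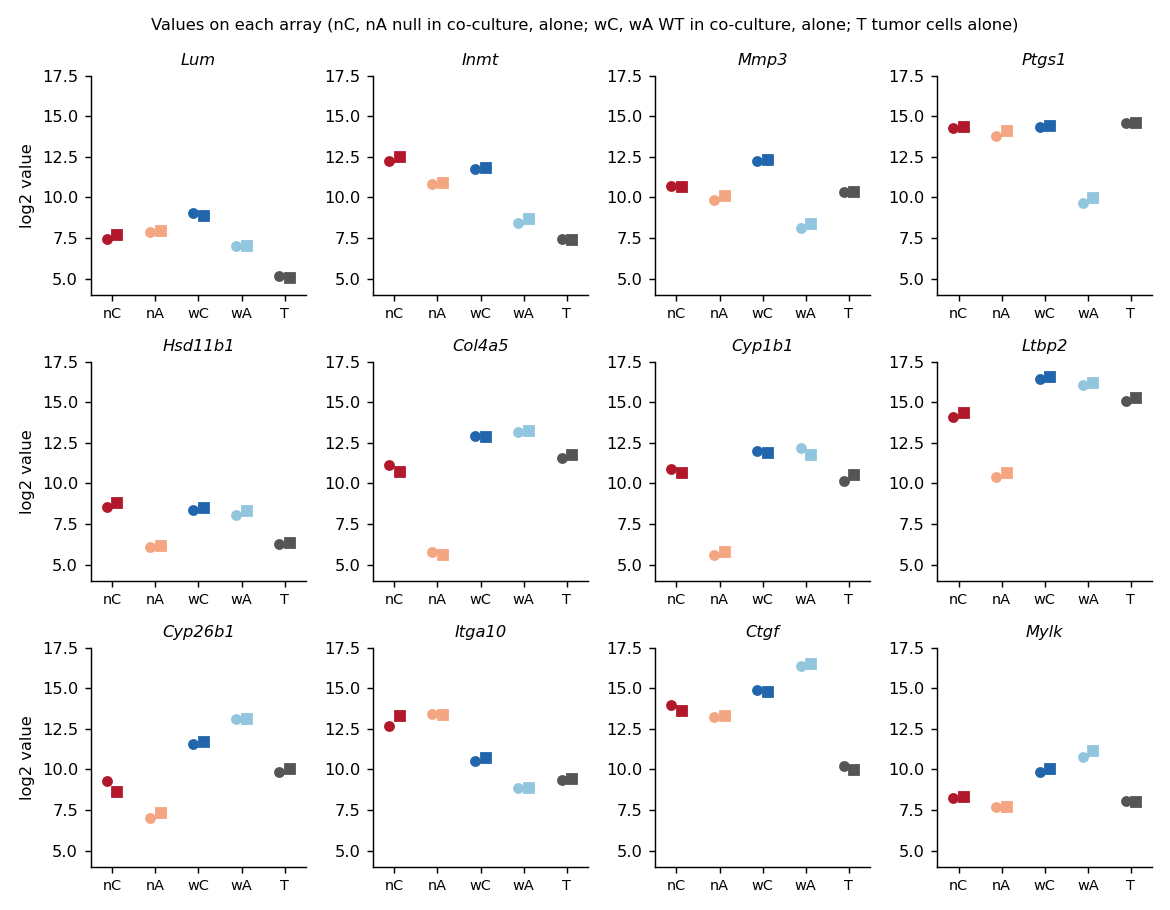
Log2 value of 12 named genes (y axis) on the 2 arrays of each group (circles replicate A, squares replicate B) for null fibroblasts in co-culture (nC) and alone (nA), WT fibroblasts in co-culture (wC) and alone (wA) and tumor cells alone (T). Lum in WT co-culture and Hsd11b1 in null co-culture stand above the tumor cells and above the same fibroblasts alone, while Col4a5 and Ltbp2 in null co-culture lie between null fibroblasts alone and the tumor cells.

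Among 17 contractile genes tested, 4 passed with a negative difference and 0 with a positive one, beside 1.07% and 1.96% of all genes. WT fibroblasts fell for 3 of the 17 and rose for 0, and the null response passed for 0. Their median difference was -0.78, with a median null response of 0.36 and a median WT response of -0.42, beside a median difference of -0.00 over all genes tested. Of the 17, 6 were at least 2-fold higher in tumor cells alone than in WT or null fibroblasts alone. The fall of 0.60 that the WT tumor shares give by arithmetic for a transcript that tumor cells lack does not hold for these 6. The part of the tumor share in the list medians was not tested. The 4 genes that passed were Mylk, Actg2, Myocd and Tpm1. Mylk, the kinase of the myosin light chain, read 8.23 and 8.28 in null fibroblasts from co-culture and 7.71 and 7.68 alone, against 9.86 and 10.06 in WT fibroblasts from co-culture and 10.75 and 11.16 alone. WT arrays from co-culture lay below WT arrays alone and the null arrays lay the other way round (difference -1.56 ± 0.20, adjusted p = 0.00159; null response 0.56, adjusted p = 0.0654; WT response -0.99, adjusted p = 0.000965). Actg2, gamma smooth muscle actin, had a difference of -2.04 ± 0.38 (adjusted p = 0.0151) that turned to 1.66 when the tumor share was subtracted. Myocd, the coactivator of smooth muscle genes, had -0.95 ± 0.20 (adjusted p = 0.0334) and Tpm1, a tropomyosin, had -0.58 ± 0.13 (adjusted p = 0.0472) with a WT response of -0.31 that did not pass (adjusted p = 0.0679). Tumor cells alone held more Tpm1 (13.73 and 13.80) than WT fibroblasts alone (13.35 and 13.40). Without array A of the null co-culture neither Myocd (adjusted p = 0.104) nor Tpm1 (adjusted p = 0.11) passed.

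Ctgf, a matricellular growth factor that TGF-beta and mechanical load are known to induce, fell in WT fibroblasts. The part of the tumor share in this fall was not tested. It read 13.97 and 13.62 in null fibroblasts from co-culture and 13.25 and 13.27 alone, against 14.90 and 14.78 in WT fibroblasts from co-culture and 16.37 and 16.50 alone (difference -2.13 ± 0.36, adjusted p = 0.00903). The WT arrays separated by culture and the WT fall passed (-1.59), while the null response did not pass. Without array A of the null co-culture the difference was -1.95 (adjusted p = 0.0396), and with the level of co-cultured tumor cells subtracted it was -1.53 (adjusted p = 0.0709).

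Notch, Wnt and BMP genes had 4 of 34 tested negative and 1 positive, beside 1.07% and 1.96% of all genes. Their median difference was -0.50. Hes1, the Notch-induced repressor, read 9.20 and 9.11 in null fibroblasts from co-culture and 7.74 and 7.51 alone, against 7.72 and 7.10 in WT fibroblasts from co-culture and 9.26 and 8.48 alone. Null arrays were higher in co-culture and WT arrays lower, but the WT replicates spread widely, the null response did not pass (1.53, adjusted p = 0.0598), and the difference of -2.99 ± 0.53 (adjusted p = 0.0118) passed in 5 of 8 fits that left out 1 array. Jag1, a Notch ligand, had -1.73 ± 0.32 (adjusted p = 0.0154) and Nog, a BMP antagonist, -1.23 ± 0.25 (adjusted p = 0.0245). Wif1, a Wnt inhibitor, had -2.82 (7.05-fold, adjusted p = 0.000367), and its null response did not pass (adjusted p = 0.128). Wif1 was above background on 5 of the 8 arrays and on neither array of null fibroblasts alone, so its fold is not a firm lower bound. Without array A of the null co-culture Jag1 had -1.33 (adjusted p = 0.0221) and Nog -1.07 (adjusted p = 0.0824). Each passed in 3 of 8 fits that left out 1 array, with adjusted p up to 0.0791 for Jag1 and 0.115 for Nog.

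For 10 genes, 9 of them named, both responses passed with opposite signs. Beside Gstm7 and Insl6 these were Cyp26b1, Lims2, Soat2, Chac1, Panx1, Nrg1 and Rhoj, all rising in null and falling in WT fibroblasts. Cyp26b1, which degrades retinoic acid, read 9.31 and 8.60 in null fibroblasts from co-culture and 7.02 and 7.34 alone, against 11.59 and 11.67 in WT fibroblasts from co-culture and 13.13 and 13.09 alone. The groups did not overlap, and the genotypes lay closer in co-culture than alone (difference -3.26 ± 0.34, adjusted p = 0.000451; -2.90 without array A of the null co-culture). Chac1 and Trib3 are targets of ATF4, the factor of the integrated stress response. They were the 2 of 22 genes of that list that passed, beside 3.03% of all genes. Trib3 read 12.61 and 12.05 in null fibroblasts from co-culture and 10.77 and 10.66 alone, against 14.45 and 14.34 in WT fibroblasts from co-culture and 14.996 and 14.93 alone (difference -2.19 ± 0.27, adjusted p = 0.00132). Its WT response of -0.57 did not pass, whereas that of Chac1, also -0.57, did (difference -1.47 ± 0.21, adjusted p = 0.00386). All 7 genes that rose in null fibroblasts were lower in null than in WT fibroblasts alone. With the level of co-cultured tumor cells subtracted, Trib3 (-0.47, adjusted p = 0.889) and Chac1 (-0.21, adjusted p = 0.84) did not pass, while Cyp26b1 did. Panx1, Nrg1 and Rhoj did not pass with that level or with the level of tumor cells alone subtracted.

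Interferon-stimulated genes rose in both genotypes. The rise was significantly larger in null fibroblasts for 5 of 38, beside a negative difference that passed for 1.07% of all genes. Of the 38, 33 rose in null fibroblasts with a list median of 1.53 and 24 in WT fibroblasts with a list median of 0.91. The difference was negative in sign for 31, its median was -0.59 and 0 genes passed in the positive direction. Only 1 of the 38 was at least 2-fold higher in tumor cells alone than in null or WT fibroblasts alone. With the tumor share subtracted the list median was -0.27, beside -0.10 over all genes tested. The 5 genes that passed were Oas2, Oas3, Stat2, Irgm1 and Eif2ak2. Their 250 bases before the annotated start are shown for the 3, of 4 with a window, that hold an interferon-stimulated response element, since this is the letter pattern through which type I interferon is known to act on its target genes. Sequences are from RefSeq (GRCm38.p6), read on the strand of the gene, and capitals mark the motif on either strand, searched as GAAA, any pair of bases and GAAA again.
Oas3 (chr5:120777660-120777909, minus strand): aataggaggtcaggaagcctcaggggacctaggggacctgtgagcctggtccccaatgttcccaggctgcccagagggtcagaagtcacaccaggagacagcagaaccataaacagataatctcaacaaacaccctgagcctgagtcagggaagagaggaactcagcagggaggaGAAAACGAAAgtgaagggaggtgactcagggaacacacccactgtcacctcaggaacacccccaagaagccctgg
Stat2 (chr10:128270248-128270497, plus strand): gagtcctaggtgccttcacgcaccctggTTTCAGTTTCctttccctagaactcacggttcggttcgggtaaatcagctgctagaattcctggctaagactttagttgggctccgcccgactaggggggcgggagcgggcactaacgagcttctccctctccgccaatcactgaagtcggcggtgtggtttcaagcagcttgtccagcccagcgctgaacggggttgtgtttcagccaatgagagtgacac
Irgm1 (chr11:48871421-48871670, minus strand): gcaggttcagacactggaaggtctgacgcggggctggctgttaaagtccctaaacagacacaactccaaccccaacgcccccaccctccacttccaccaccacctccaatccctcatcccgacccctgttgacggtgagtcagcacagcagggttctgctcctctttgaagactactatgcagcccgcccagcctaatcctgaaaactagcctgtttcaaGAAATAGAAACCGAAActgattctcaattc
In Irgm1 the capitals cover 2 overlapping matches, and in Stat2 the match lies on the other strand. The motif was found in 13 of 27 list genes with a window, against 3.11% of the 11424 tested genes with one, in 11 of 306 positive and in 7 of 142 negative genes. The heat shock element, searched on both strands as 3 units of GAA or its reverse, in turn and each 2 bases apart, was in 0.466% of 32851 windows, in 1 of the 306 positive genes, in 0 of the 142 negative ones and in 3 of 30 heat shock genes.

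Oas3, an oligoadenylate synthetase that senses double-stranded RNA, read 8.68 and 9.12 in null fibroblasts from co-culture and 7.04 and 6.97 alone, against 5.63 and 5.79 in WT fibroblasts from co-culture and 5.43 and 5.38 alone. Tumor cells alone read 5.87 and 5.70 and those from the null co-culture 11.32 and 11.53. Null fibroblasts in co-culture stood above all other fibroblast arrays, the null rise was 1.89, the WT response of 0.31 did not pass, and the difference was -1.58 ± 0.22 (adjusted p = 0.00289; -1.80 without array A of the null co-culture). Oas2, its close relative, read 14.16 and 14.42 in null fibroblasts from co-culture and 11.46 and 11.52 alone, against 8.16 and 8.19 in WT fibroblasts from co-culture and 6.43 and 6.40 alone (difference -1.04 ± 0.23, adjusted p = 0.0361). Oas2 rose in both genotypes from levels that already differed widely.

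Stat2, the interferon signal transducer, read 13.44 and 13.65 in null fibroblasts from co-culture and 12.07 and 12.08 alone, against 12.46 and 12.42 in WT fibroblasts from co-culture and 11.91 and 12.04 alone (difference -1.01 ± 0.21, adjusted p = 0.0278). Irgm1, an immunity-related GTPase, had -0.90 ± 0.19 (adjusted p = 0.0324) and Eif2ak2, the RNA-activated kinase PKR, -1.14 ± 0.26 (adjusted p = 0.048). Of the 5, Oas3 passed in all 8 fits that left out 1 array, Oas2, Stat2 and Eif2ak2 in 1 each and Irgm1 in 0. Without array A of the null co-culture, Irgm1 (-0.97, adjusted p = 0.0555) and Eif2ak2 (-0.94, adjusted p = 0.141) did not pass. Tumor cells from the null co-culture held much more of Oas2 than those from the WT co-culture, with 15.17 and 15.47 against 9.12 and 8.70. With the tumor share subtracted, Oas3 passed and the other 4 did not: Oas2 had -0.66 (adjusted p = 0.169), Stat2 -0.60 (adjusted p = 0.175), Irgm1 -0.56 (adjusted p = 0.163) and Eif2ak2 -0.78 (adjusted p = 0.153). With the level of the co-cultured tumor cells subtracted, Oas2 passed and the other 4 did not: Oas3 had -1.09 (adjusted p = 0.18), Stat2 -0.51 (adjusted p = 0.384), Irgm1 -0.68 (adjusted p = 0.141) and Eif2ak2 -0.74 (adjusted p = 0.284). With scanner intensities scaled at the 75th percentile none of the 5 passed, and Oas2 had -0.06 (adjusted p = 0.999).

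Of 39 cytosolic chaperone genes tested, 1 passed, beside 3.03% of all genes, with a median difference of 0.03, a median null response of -0.09 and a median WT response of -0.01. The gene that passed was Hspa4l, an HSP110 family chaperone, with 11.66 and 11.79 in null fibroblasts from co-culture and 11.20 and 11.00 alone, against 12.46 and 12.39 in WT fibroblasts from co-culture and 11.02 and 10.83 alone. Its difference of 0.87 ± 0.19 (adjusted p = 0.0348) passed in 1 of 8 fits that left out 1 array and was 0.80 (adjusted p = 0.102) without array A of the null co-culture. It turned to -0.49 when the tumor share was subtracted, and its gain was 9.79% and 12.6% of the tumor level in null and 33.5% and 31.2% in WT fibroblasts. Of 27 proteasome genes 0 passed in limma, and 4 had an unadjusted p under 0.05.

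TGF-beta and Cxcl12, the stromal signals named above as background, had responses that did not differ detectably. Tgfb1 read 9.79 and 10.12 in null fibroblasts from co-culture and 8.93 and 9.19 alone, against 11.38 and 11.75 in WT fibroblasts from co-culture and 10.66 and 10.97 alone. It rose in both genotypes (0.90 in null, adjusted p = 0.0172; 0.75 in WT, adjusted p = 0.0215), with a difference of -0.15 ± 0.25 (adjusted p = 0.943). Cxcl12 read 12.78 and 12.63 in null fibroblasts from co-culture and 12.33 and 12.32 alone, against 15.85 and 15.99 in WT fibroblasts from co-culture and 15.55 and 15.40 alone. The level was much higher in WT in both cultures, while neither response passed and the difference was 0.07 ± 0.24 (adjusted p = 0.99). Tgfb2 had a difference of -0.35 (adjusted p = 0.864), Tgfb3 -0.65 (adjusted p = 0.386) and Cxcr4, the Cxcl12 receptor, 0.24 (adjusted p = 0.893) with both WT groups not above background.

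For the remaining lists the counts stand beside 3.03% of all genes tested, which passed in either direction. Collagen and matrix genes had 2 of 39 positive and 3 negative (median difference -0.53; median null response 0.23, median WT response -0.39), and TGF-beta response genes 1 of 23 positive and 3 negative (median -0.53). Angiogenic and growth factors had 3 of 32 positive and 1 negative, hypoxia and glycolysis genes 3 of 34 and 1, and inflammatory genes 3 of 31 and 2. Chemokines had 0 of 27 positive and 1 negative, which was Cxcl5, a chemokine that draws neutrophils, with -2.13 ± 0.48 (adjusted p = 0.0435). Its null values in co-culture were 9.61 on array A and 8.18 on array B, and it had -1.41 (adjusted p = 0.00871) without array A. It passed in 2 of 8 fits that left out 1 array (adjusted p up to 0.158), had adjusted p = 0.103 on the 8 fibroblast arrays only, and had -0.97 (adjusted p = 0.617) with the tumor share subtracted. Immediate early genes had a median null response of 1.05 and a median WT response of 0.30 with 0 of 23 passed in the difference and 10 at an unadjusted p under 0.05. Mitosis genes had 0 of 28 passed (1 at an unadjusted p under 0.05), DNA replication genes 1 of 29 and cholesterol and fatty acid synthesis genes 0 of 27 (3 at an unadjusted p under 0.05).

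**Figure D5:**
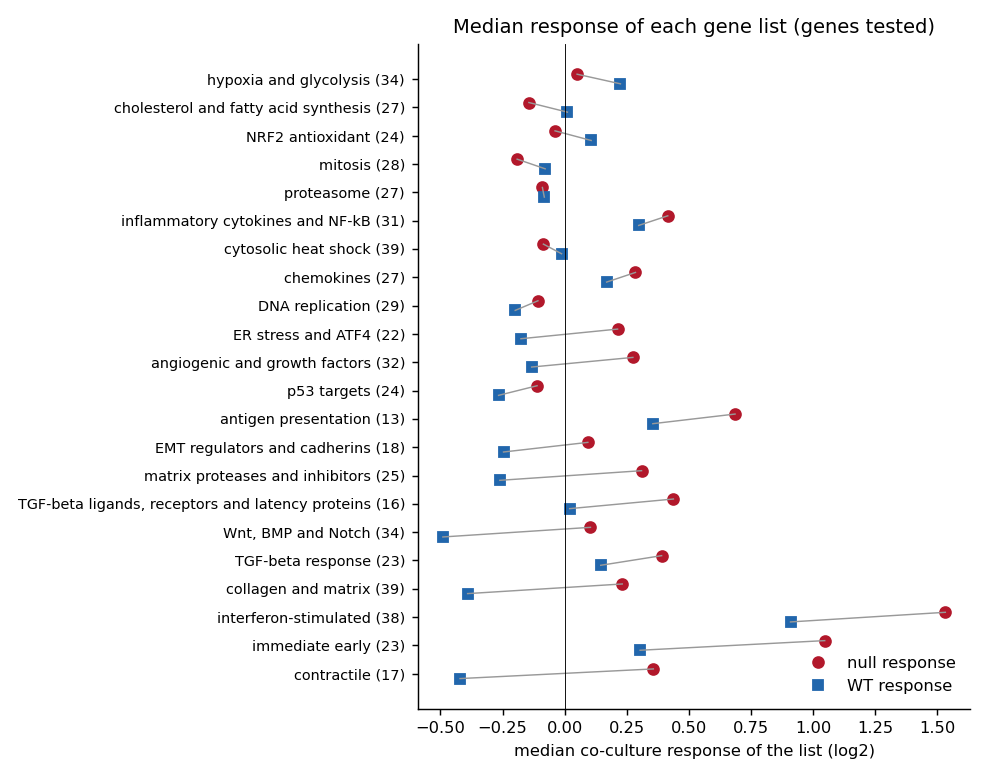
Median co-culture response of each of 22 gene lists (number of genes tested in parentheses) in null fibroblasts (red circles) and WT fibroblasts (blue squares), on the log2 scale. The interferon-stimulated list has the highest medians, 1.53 in null and 0.91 in WT, and the contractile list has 0.36 in null and -0.42 in WT.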

How the data were processed

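The deposited scanner files hold intensity values from 14 one-colour Agilent mouse arrays, each with 59305 spots, made, per the file headers, with version 10.1.1.1 of Feature Extraction (9.1 in the submitters' processing notes). The authors' value table holds log2 values for 36413 gene names, and the scaling between arrays is not given in the sources used here (array medians 6.34 to 6.40). Against the scanner intensities the 8 fibroblast arrays had r of 0.977 to 0.982 in that table, while the scanner files of 2 tumor cell arrays were faulty (36.8% and 32.1% of spots with outlier flags), so the table was used. Per the labels' protocols, mitomycin C (10 µg/ml, 2 hours) was given to MEFs only for profiling of the cancer cells, and 0.5 µg of RNA was labelled.

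From the log2 values, limma 3.58.1 in R 4.3.3 fitted 7 group means to 14 arrays (7 residual degrees of freedom). Genes well above background on both arrays of at least 1 group were tested, with Benjamini-Hochberg adjustment and a threshold of 0.05. Values are log2 and errors are the SE of the fit. Where a group was not above background, a fold is a lower bound, except for Wif1. On simulated data the fit recovered 58%, 90% and 100% of differences of 1, 2 and 4 (log2) and called 0.0593% of unchanged genes. The simulation used a common mean for all groups and independent noise. It held no slide deviations shared between groups and no tumor share, so its rates need not hold for these arrays.

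Replicate letters pair the arrays through the slide that the file headers give: deviations of the same letter correlated between groups by 0.324 to 0.695 (6 pairs of fibroblast groups, 21366 genes). The labels do not say that replicates were separate cultures, so p-values reflect the spread among the arrays as they are, which may be technical. Genes were named by rule: the 10 highest and 10 lowest differences, up to 5 per direction with opposite responses, the 3 highest bounds per direction, Hsf1, Tgfb1, Tgfb2, Tgfb3, Cxcl12 and Cxcr4, and up to 4 per list by p. Up to 10 per direction outside the range of the same fibroblasts alone, tumor cells alone and tumor cells of the same co-culture, and other list members that passed were added after their values were seen. The comparison and the 27 gene lists were chosen with earlier results of these data known. Gene names are those of the array. Results of some genes that the rule selects are not reported here, and counts include them.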

Additional observations from a re-analysis of the deposited data

Results flagged for a closer look

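The responses of the 2 genotypes differed, by a test of the difference itself (limma), for 784 genes. Among them 9 named genes changed in opposite directions in null and WT fibroblasts, with both responses past the threshold. The WT minus null difference was -3.26 for Cyp26b1, -2.39 for Lims2, -1.70 for Soat2, -1.47 for Chac1, -1.15 for Panx1, -1.15 for Nrg1 and -1.001 for Rhoj, all of which rose in null and fell in WT fibroblasts. It was 1.20 for Insl6 and 1.41 for Gstm7, which fell in null and rose in WT fibroblasts. The differences of Panx1, Nrg1 and Rhoj did not pass with the tumor share subtracted, at the level of tumor cells alone or co-cultured. The null gain was 7.96% and 4.81% of the tumor level for Panx1, and 10.55% and 9.52% for Nrg1. Soat2, a sterol esterifying enzyme, read 6.89 and 6.70 in null fibroblasts from co-culture and 5.86 and 5.55 alone, against 8.23 and 8.13 in WT fibroblasts from co-culture and 8.71 and 8.88 alone. Its difference turned to 0.45 when the level of tumor cells from the same co-culture, 10.20 and 10.00 with null and 8.29 and 8.15 with WT fibroblasts, was used for the subtraction. Lims2, an adaptor of focal adhesions, read 10.42 and 10.08 in null fibroblasts from co-culture and 8.79 and 9.03 alone, against 12.49 and 12.63 in WT fibroblasts from co-culture and 13.62 and 13.60 alone. Without array A of the null co-culture, the array with the gain in genes high in the WT stock, the differences were -2.22 for Lims2, -1.60 for Soat2, -1.53 for Chac1, -1.12 for Nrg1, -1.02 for Panx1, -1.04 for Rhoj and 1.27 for Insl6. Without that array the null response did not pass for Panx1 (0.50, adjusted p = 0.0986), Nrg1 (0.64, adjusted p = 0.0557), Insl6 (-0.67, adjusted p = 0.0549) and Gstm7 (-0.57, adjusted p = 0.0924), while it passed for the other 5.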

How the results depend on the processing

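The count of genes whose responses differed was 784 and moved to 1651 with the replicate block on the 8 fibroblast arrays, 292 with scanner intensities scaled at the 75th percentile, 434 with normexp and quantile normalization, 1397 with the tumor share subtracted and 75 without genes 2-fold higher in tumor cells. It lay between 409 and 1031 with 1 array left out, and under 784 by over 1.5 times for either array of null fibroblasts alone (492 and 446), WT fibroblasts from co-culture (477 and 409) and WT fibroblasts alone (483 and 471). The null response (814 genes) moved to 1313 with the replicate block on 8 arrays, 387 with the level of co-cultured tumor cells subtracted and 202 without tumor-high genes, with 536 to 832 when 1 array was left out. The WT response (2722 genes) moved to 5186 with that block, 1727 with scanner intensities, 5516 with the tumor share subtracted and 1066 without tumor-high genes, with 1301 to 3054 when 1 array was left out. The replicate block on 14 arrays gave 1052, 1002 and 3618 genes and changed no other call of a named gene.

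Differences turned direction when the tumor share was subtracted for Gng2 (-3.29), Col7a1 (-0.18), Mmp13 (-1.36), Actg2 (1.66) and Pdk1 (-0.17). They turned with the level of co-cultured tumor cells for Pthlh (-1.79), Fbln2 (0.22), Areg (-0.41) and Soat2 (0.45). With either level they turned for Ica1 (-0.40 and -0.65), Rhbdf2 (-0.0159 and -0.000492), Hspa4l (-0.49 and -1.14), Fkbp4 (-5.89 and -1.98), Traf1 (-2.16 and -1.52), E2f2 (-4.42 and -4.20), Ube2c (-0.72 and -1.65) and Angptl4 (-1.90 and -2.98). Where a subtracted value was replaced by the floor of its array, the size of the turned difference depends on that floor. Fkbp4 and Ube2c had not passed in the main fit (limma, adjusted p = 0.212 and 0.232). The cause was not tested. Of 93 named genes that passed, 36 also passed with scanner intensities at the 75th percentile, 50 with normexp, and 61 to 83 with 1 array left out; 19 did so under every alternative run that tested them, with Cyb561, Ptgs1, Perp, Tnnt2, Krt8, Gstm7, Inmt and Lum among the 10 positive and Ccnd1, Col4a5, Cyp1b1, Cyp26b1, Id4, Ltbp2, Nr2f1, Tbx3 and Mylk the 9 negative. Only 2 arrays per group, and probes near background in 1 of the 4 groups, limit what could pass.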
